A study of Mus musculus with 2 samples.

Results

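Tendon joins muscle to bone, and the myotendinous junction is the folded surface where the end of a muscle fibre is anchored to it. Accessible chromatin was examined at 8 genes that mark this tissue: Scx, Mkx, Tnmd, Thbs4, Fmod, Tnc, Comp and Kera. They were chosen by name from what is known of tendon, at a time when earlier results of these data were known. They are 8 of the 21938 protein-coding genes of GENCODE mouse release M21. For each gene, peaks and footprints were collected within 1 kb of every annotated transcription start, called promoter peaks here, and from 20 kb upstream to 20 kb downstream of the gene. A peak in that wider window that lay within 1 kb of no start of any annotated gene was called distal.

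DNase-seq measures how readily the enzyme DNase I cuts the DNA of isolated nuclei, so a peak marks open chromatin and a footprint marks a short stretch inside it that is cut less than its surroundings. The material was whole gastrocnemius, the large calf muscle that pulls on the Achilles tendon, from male mice of strain B6CASTF1/J at 25 days of age, with no treatment named in the labels. This strain is the F1 hybrid of C57BL/6J and CAST/EiJ, and every sequence printed here is that of the C57BL/6J reference. The 2 libraries, replicates 1 and 2, form 1 group with no control or treatment, and their labels number different males but give a single donor identifier, so the spread between them may be partly technical.

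Replicate 1 held 97499 peaks and replicate 2 held 61664, and they held 243784 and 171389 footprints. Peak signals are the authors' own values and were read as tags in a window scaled to library size, a reading that rests on the values and gives tags per 1000000 tags. By it the libraries held 169 M and 117 M tags, and 1 tag was worth 0.00591 and 0.00854 of signal. For the labelled tissue, all 6 myofibre genes searched had a promoter peak in both libraries, as did 63% of all protein-coding genes. Their signals ran from 1.93 to 6.31 in replicate 1 and from 1.69 to 5.94 in replicate 2. Their median percentiles among all genes with a promoter peak were 49.3 and 41.5, so these signals did not stand out. In bulk tissue, a peak of low signal in every cell and a peak of high signal in few cells cannot be told apart.

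Scx and Mkx encode the transcription factors best known for building tendon: scleraxis, a basic helix-loop-helix protein that binds E-boxes, and mohawk, a homeodomain protein of the TALE class. Tnmd encodes tenomodulin, a membrane glycoprotein of mature tendon cells. The other genes encode matrix proteins: the thrombospondins Thbs4 and Comp, the tenascin Tnc, which is concentrated at the myotendinous junction, and the small leucine-rich proteoglycans Fmod and Kera, which bind collagen fibrils.

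A promoter peak was found at 6 of the 8 genes in replicate 1 and at 5 in replicate 2, and at 5 in both: Scx, Mkx, Thbs4, Tnc and Comp. Among all protein-coding genes the shares with a promoter peak were 66.5% and 64.2%, and 63% had one in both libraries. Fmod had a promoter peak in replicate 1 alone, and Tnmd and Kera had none. Where a promoter peak was present it was weak: all 6 signals of replicate 1 and all 5 of replicate 2 lay below the median of all genes with a promoter peak, which was 3.57 and 3.43. Of the 8 promoters, that of Mkx alone was CpG-rich, against 29.9% of all genes. Among CpG-poor genes, 53.6% and 50.5% had a promoter peak, and 49.1% had one in both, where the tendon genes of that class counted 5 and 4 of 7, and 4 of 7 in both. The median signal of CpG-poor promoters was lower, 2.65 in each library. The CpG-poor tendon genes lay below it, with Comp near it at 2.51 and 2.30. Mkx, with 2.26 and 3.23, lay below the CpG-rich medians of 5.02 and 4.37.

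**Figure D1:**
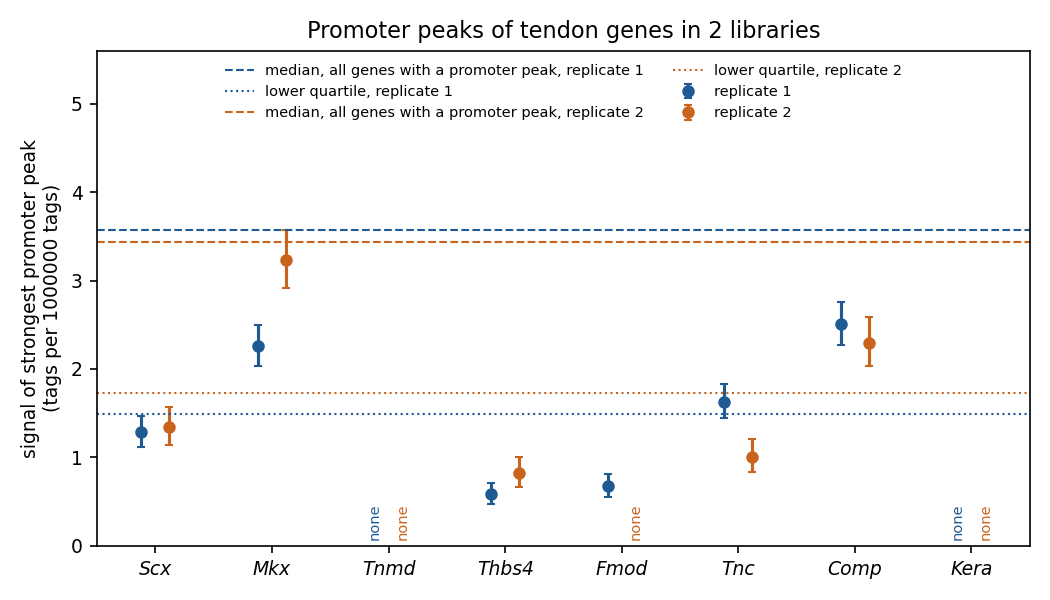
Signal of the strongest promoter peak (vertical axis, tags per 1000000) of each tendon gene (horizontal axis) in replicates 1 and 2, with 95% Poisson intervals that cover counting error only; dashed and dotted lines give the median and lower quartile of all genes with a promoter peak. Every point lies below the medians of 3.57 and 3.43, those of Scx, Thbs4 and Fmod, and that of Tnc in replicate 2, lie below the lower quartile of their library, and "none" marks a library without a promoter peak.

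The windows of the 8 genes held 40 distal peaks in replicate 1 and 25 in replicate 2. In replicate 1, 6 of the 8 genes had 3 or more distal peaks, and in replicate 2, 5 had, where the shares of all protein-coding genes were 37.7% and 21.2%. Of the distal peaks of replicate 1, 24 (60%) overlapped a peak of replicate 2, against 40% of all its distal peaks. Of those of replicate 2, 22 (88%) overlapped a peak of replicate 1, against 75.4%. Merged where they overlapped, they made 21 distal regions seen in both libraries, 16 in replicate 1 alone and 3 in replicate 2 alone. In replicate 1 the shared regions had a median signal of 1.25 and the unshared ones of 0.636, so the regions that replicate 2 lacked were on the whole the weaker ones.

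**Figure D2:**
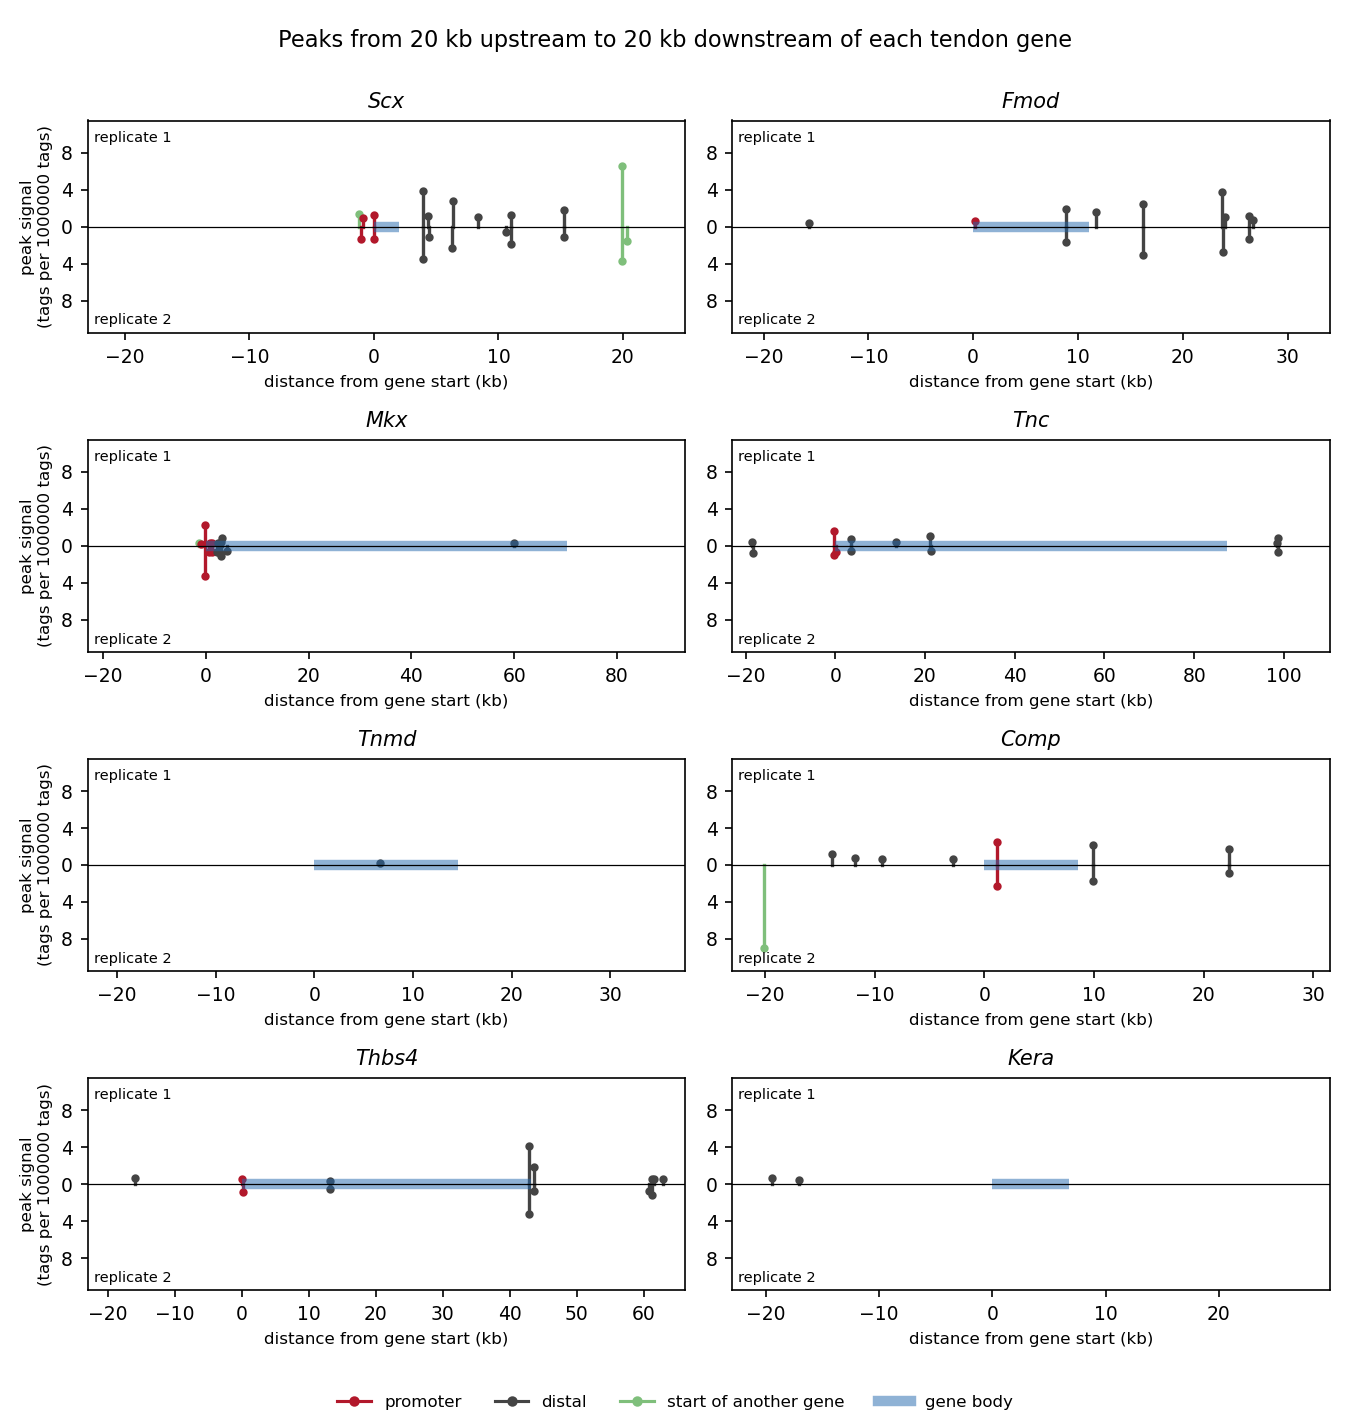
Peaks in the window of each tendon gene, with distance from the gene start in kb on the horizontal axis and peak signal in tags per 1000000 on the vertical axis, replicate 1 drawn upward and replicate 2 downward; red marks promoter peaks, grey distal peaks, green peaks at starts of other genes and blue the gene body. Scx, Thbs4 and Fmod have higher peaks away from their own starts than at them, Mkx has its highest at the start, and the windows of Tnmd and Kera are nearly empty.

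Scx lies at chr15:76457452-76459458 on the plus strand of mm10, inside the body of Bop1, a ribosome assembly gene read from the other strand. Its strongest promoter peak had a signal of 1.28 in replicate 1 and of 1.34 in replicate 2, at the 22.0 and 19.1 percentiles of all promoter peaks. These were not the same place. In replicate 1 the strongest peak was centred at -2 bp from the 5′ start, over the first exon, and in replicate 2 at -1026 bp. The region of the latter overlaps a non-coding exon of Bop1 and lies within 1 kb of a start of that gene. In the same region replicate 1 had 2 peaks, 1 of 1.36 outside the promoter window of Scx and a weaker one inside it, centred at -905 bp, with 0.929. The peak over the first exon itself was almost equal in the libraries, at 1.28 and 1.31 (1.30 ± 0.0168, SD, n = 2).

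Scx had 2 regions downstream whose signal exceeded that of its promoter in both libraries. The first, at +3.9 kb (distances are from the 5′ start of the gene, positive in the direction of transcription) had signals of 3.82 and 3.47, and the other, at +6.3 kb, had 2.81 and 2.26. Both were above the 90th percentile of all distal peaks in both libraries, and both lay in introns of Bop1, as did all 7 distal regions of the window. Between them a shared region at +4.4 kb lay below the promoter, with 1.15 and 1.13. Further out, regions at +11.0 kb (1.25 and 1.85) and +15.3 kb (1.79 and 1.06) exceeded the promoter in 1 library each. The remaining regions, at +8.4 kb in replicate 1 (1.03) and at +10.6 kb in replicate 2 (0.530), were lower. At +11.0 and +15.3 kb a match to the core consensus of the insulator protein CTCF touched a footprint in both libraries. The count of 6 distal peaks in each library put Scx at the 97.0 and 97.6 percentiles of genes of its length class. The window also reached the shared start region of Bop1 and Hsf1 at +19.9 kb, with 6.55 and 3.67, and a weaker peak there at +20.3 kb in replicate 2 alone, with 1.53.

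Mkx lies at chr18:6934518-7004780 on the minus strand. It had the strongest single promoter value of the group in replicate 2, 3.23, against 2.26 in replicate 1 (mean 2.74 ± 0.686, SD, n = 2), at the 46.8 and 34.6 percentiles. The log2 ratio of replicate 1 to replicate 2 was -0.52, lower than at all but 7.92% of the 12948 promoters with a shared peak, whose median was 0.13. The counting intervals of the 2 libraries, 2.04 to 2.50 and 2.91 to 3.57, did not meet. This peak lay over the first exon, shared its window with a start of the non-coding gene AC148004.1, and held 6 and 7 footprints, the most of any promoter peak in the group, Comp sharing the 6 of replicate 1.

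Beyond its promoter Mkx had 4 distal peaks in each library. The strongest, in an intron at +3.0 kb, reached only 0.846 and 1.14, and the next shared one, at +2.3 kb, had 0.349 and 0.615. Near -1.3 kb replicate 1 alone had a peak of 0.272, within 1 kb of a start of AC148004.1. Mkx was thus the reverse of Scx, with its highest signal at its own start. The 70263 bp gene body held 1 peak past +4.1 kb, at +59.9 kb, in replicate 1 alone and with a signal of 0.325.

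Tnmd lies at chrX:133850980-133865577 on the plus strand. Neither library had a promoter peak, and neither listed any position with a q-value below 0.05 within 1 kb of its single start. Genes without a promoter peak had such a listed position in 2.81% and 2.69% of cases. The window held 1 peak, at +6.7 kb in an intron, with a signal of 0.254 in replicate 1 and none in replicate 2, and no footprint. Its lowest q-value was 0.0256. Male cells carry a single X, and 51.2% and 47.7% of X-linked genes had a promoter peak. The 222 bases before the annotated start (RefSeq table, mm10, chrX:133850758-133850979, plus strand) are shown because this is the promoter in which no open chromatin was detectable at this depth:

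Tnmd upstream: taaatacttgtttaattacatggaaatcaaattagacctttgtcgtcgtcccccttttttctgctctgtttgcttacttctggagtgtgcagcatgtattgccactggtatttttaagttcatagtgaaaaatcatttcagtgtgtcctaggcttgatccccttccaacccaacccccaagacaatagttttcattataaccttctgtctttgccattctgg

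No base is in capitals because none of the 3 motifs searched in the RefSeq promoters on either strand is in these letters. They were the E-box CANNTG, present in 69.0% of the 21262 promoters of that table. The TATA box, TATAAA, was in 12.6% of them. The site of SP and KLF proteins, GGGCGG, was in 46.2%. The table held promoters of 5 of the 8 genes.

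Thbs4, at chr13:92751590-92794818 on the minus strand, encodes thrombospondin 4, which holds tendon matrix and the muscle attachment together. Its promoter peak was among the weakest: 0.580 and 0.820 in the libraries (mean 0.700 ± 0.170, SD, n = 2), at the 9.30 and 9.43 percentiles. It still held 4 footprints in each library. The counting intervals, 0.471 to 0.706 and 0.664 to 1.00, overlapped.

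The strongest distal region of Thbs4 stood at the other end of the gene. At +42.9 kb, in an intron near the 3′ end, signals were 4.13 and 3.28, at the 99.0 and 96.6 percentiles of distal peaks. It was the highest distal value of the 8 genes in replicate 1, while in replicate 2 that of Scx at +3.9 kb was higher. The strongest distal peak was thus 7.12 times the promoter peak in replicate 1, and for replicate 2 the factor was 4 (mean 5.56 ± 2.21, SD, n = 2). Just beyond the gene, at +43.6 kb, a further region had 1.83 and 0.735. The 2 other shared regions had 0.343 and 0.504 at +13.2 kb and 0.597 and 1.22 at +61.4 kb, so the regions at +43.6 and +61.4 kb changed order between the libraries.

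The strongest distal region (chr13:92751821-92752000, mm10, minus strand, 180 bases) is shown with the bases inside a footprint in both libraries in capitals, and the 250 bases before the start (RefSeq table, chr13:92794819-92795068, minus strand) with their E-box in capitals:

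Thbs4 +42.9 kb: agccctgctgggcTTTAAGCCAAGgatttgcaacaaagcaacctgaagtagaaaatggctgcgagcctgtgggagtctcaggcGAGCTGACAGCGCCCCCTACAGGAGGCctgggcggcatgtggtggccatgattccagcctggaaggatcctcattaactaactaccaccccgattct

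Thbs4 upstream: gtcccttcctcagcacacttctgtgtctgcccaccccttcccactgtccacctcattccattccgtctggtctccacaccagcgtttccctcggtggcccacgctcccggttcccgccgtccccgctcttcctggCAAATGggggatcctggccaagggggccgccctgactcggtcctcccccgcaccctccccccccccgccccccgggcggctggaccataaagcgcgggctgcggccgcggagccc

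The longer capital run of the distal region holds TGACAG, the letters searched as a TALE homeodomain site. It also holds overlapping matches, on the printed and on the opposite strand, to a looser form of the CTCF consensus. This form was searched after the sequence had been seen. That form was found in 6 of the 21 shared distal regions (28.6%) and in 22.0% of all 26234 distal peaks of replicate 1 that replicate 2 shares. The upstream sequence has GC-rich stretches, and between -89 and -42 bp of the start it holds 3 matches to GGGCGG.

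Fmod, at chr1:134037254-134048277 on the plus strand, encodes fibromodulin, a proteoglycan that governs collagen fibril growth. Its promoter peak had a signal of 0.674 in replicate 1, at the 11.4 percentile, with a counting interval from 0.556 to 0.810, and replicate 2 had none. Of its 7 distal regions, 4 were found in both libraries, each with a signal above that of the promoter peak. At +23.9 kb signals were 3.71 and 2.68, at +16.2 kb 2.51 and 3.08, at +8.9 kb 1.95 and 1.62, and at +26.4 kb 1.15 and 1.35. In replicate 1 the strongest of them was 5.5 times the promoter peak. The region at +11.7 kb, with 1.55, was the strongest distal region of the group to be seen in replicate 1 alone, and the one at -15.7 kb, with 0.361 in replicate 1 alone, lay below the promoter peak.

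The counts of 8 and 4 distal peaks put Fmod at the 97.9 and 92.6 percentiles of its length class. The regions at +23.9 and +26.4 kb, and a weaker one at +26.7 kb in replicate 1 alone, lie within one 5619 bp element, chr1:134060554-134066172, that the RefSeq annotation lists as an enhancer tested in transgenic animals by the VISTA project. It was the only RefSeq enhancer that met a region of any of the 8 genes. The regions at +16.2 kb (chr1:134053341-134053520, plus strand) and +8.9 kb (chr1:134046021-134046220, plus strand) are shown with shared footprint bases in capitals. They were the strongest in replicate 1 among the regions open in both libraries that overlapped no annotated exon. The stronger region at +23.9 kb overlapped an exon of the RefSeq annotation, so it was not printed. The 250 bases before the start (RefSeq table, chr1:134037004-134037253, plus strand) follow for contrast, with the E-box in capitals:

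Fmod +16.2 kb: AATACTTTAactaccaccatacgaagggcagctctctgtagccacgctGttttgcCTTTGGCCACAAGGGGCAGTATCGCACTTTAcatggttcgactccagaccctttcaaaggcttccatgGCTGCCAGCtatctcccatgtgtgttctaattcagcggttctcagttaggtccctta

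Fmod +8.9 kb: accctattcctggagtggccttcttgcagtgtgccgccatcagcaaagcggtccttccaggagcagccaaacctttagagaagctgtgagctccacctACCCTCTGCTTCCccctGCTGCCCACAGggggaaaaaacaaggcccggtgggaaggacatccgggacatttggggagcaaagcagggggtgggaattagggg

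Fmod upstream: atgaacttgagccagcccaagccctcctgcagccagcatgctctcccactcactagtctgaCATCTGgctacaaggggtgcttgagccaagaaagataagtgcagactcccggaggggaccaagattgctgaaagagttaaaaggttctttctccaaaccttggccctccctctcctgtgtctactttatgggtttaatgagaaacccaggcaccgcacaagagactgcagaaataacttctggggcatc

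The region at +16.2 kb has 50 bases in capitals and that at +8.9 kb has 24. Capitals also mark the part of a footprint that crosses the edge of a peak, as at the first bases of the +16.2 kb region, whereas counts of footprints take in only those wholly inside a peak. The upstream sequence holds 1 E-box, at -189 bp, and neither TATAAA nor GGGCGG.

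Tnc, at chr4:63959785-64047015 on the minus strand, encodes tenascin C, a large matrix protein of loaded tendon and of the junction. Its strongest promoter peak was centred at -356 bp in both libraries, with signals of 1.63 and 1.01 (mean 1.32 ± 0.437, SD, n = 2), at the 26.6 and 13.2 percentiles. Replicate 1 was the higher, with a log2 ratio of 0.69 at the 92.6 percentile of shared promoters, and the counting intervals, 1.44 to 1.83 and 0.835 to 1.21, did not meet. Replicate 2 had a second peak over the 5′ UTR, with 0.615. Around the start of 3 shorter transcripts 26290 bp further in, neither library had a peak.

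Tnc differed from Thbs4 and Fmod in having modest distal regions. Its shared regions at +21.2 kb (1.08 and 0.598) and at +98.8 kb (0.810 and 0.624) were the highest by mean signal, followed by +3.5 kb (0.769 and 0.590) and -18.5 kb (0.438 and 0.778). All 4 distal peaks of replicate 2 were also in replicate 1. For a gene of 87231 bp the counts of 6 and 4 were at the 64.2 and 75.3 percentiles. The promoter peak (chr4:64047241-64047500, minus strand) and the nearest shared distal region (chr4:64043441-64043640, minus strand) are shown with shared footprint bases in capitals:

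Tnc promoter peak: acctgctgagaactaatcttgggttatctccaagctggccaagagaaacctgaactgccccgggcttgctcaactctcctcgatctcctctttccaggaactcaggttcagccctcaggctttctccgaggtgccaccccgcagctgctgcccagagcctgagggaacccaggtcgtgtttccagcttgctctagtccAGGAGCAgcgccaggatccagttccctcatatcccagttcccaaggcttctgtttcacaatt

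Tnc +3.5 kb: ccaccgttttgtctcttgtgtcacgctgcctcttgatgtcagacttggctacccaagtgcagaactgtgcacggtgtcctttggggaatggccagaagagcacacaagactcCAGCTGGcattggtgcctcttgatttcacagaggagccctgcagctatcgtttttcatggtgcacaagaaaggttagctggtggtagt

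At +3.5 kb the capitals take in an E-box, CAGCTG. In the promoter of the RefSeq table, downstream of this peak, Tnc was alone among the 5 matched genes in having TATAAA, at -126 bp.

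Comp, at chr8:70373558-70382066 on the plus strand, encodes cartilage oligomeric matrix protein, a thrombospondin of tendon and cartilage. Its promoter signal was the steadiest of the matrix genes, at 2.51 and 2.30 (mean 2.40 ± 0.148, SD, n = 2) and at the 37.5 and 33.7 percentiles. This peak did not lie at the 5′ start, where neither library had one. It was centred about +1.2 kb inside the gene over a coding exon, and was counted because it lay within 1 kb of the starts of 2 other transcripts of the gene, which begin 313 and 1480 bp inside the 5′ start. Read with the 5′ end of the gene alone, Comp had no promoter peak in either library. The peak held 6 and 5 footprints.

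Distal regions of Comp were shared at +9.9 kb (2.15 and 1.69), over the 3′ UTR of the neighbouring gene Crtc1, and at +22.3 kb (1.77 and 0.854), over a non-coding exon of Crtc1. Upstream, 4 regions from -13.9 to -2.9 kb had signals from 0.639 to 1.15 in replicate 1 and none in replicate 2. The start of Upf1, a gene of RNA surveillance, lies at the edge of the window. Its peak had a signal of 8.94 in replicate 2, at -20057 bp, and of 12.7 in replicate 1, where it lay just outside at -20127 bp.

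Kera, at chr10:97606879-97613692 on the plus strand, encodes keratocan, a proteoglycan of cornea and tendon. Like Tnmd it had no promoter peak and no listed position within 1 kb of its start in either library. Its window held 2 peaks in replicate 1, at -19.5 kb with 0.686 and at -17.1 kb with 0.491, and none in replicate 2. The lowest q-values of the window were 3.09e-05 and 0.0448. Of all protein-coding genes, 29.4% and 43.7% had no distal peak, and 16.4% had neither a promoter nor a distal peak in both libraries.

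Among the 5 genes whose promoter was open in both libraries, the order of signal was Comp, Mkx, Tnc, Scx and Thbs4 in replicate 1 and Mkx, Comp, Scx, Tnc and Thbs4 in replicate 2. Mkx and Comp could not be ranked against each other, nor Scx against Tnc, since their order turned between the libraries. Thbs4 was lowest in both. For genes with both kinds of peak, the strongest distal peak exceeded the strongest promoter peak in 23.8% of genes in each library, and in both libraries in 18.5%. Scx did so in both, by 2.98 and 2.59 times, and so did Thbs4, which together with the 5.5 of Fmod in replicate 1 placed these genes above the 95th percentile (95.5 and 95.3 for Scx, 99.3 and 98.3 for Thbs4, 98.7 for Fmod). Mkx (0.374 and 0.352), Tnc (0.662 and 0.771) and Comp (0.858 and 0.736) did not, and the medians of all such genes were 0.391 and 0.471.

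**Figure D3:**
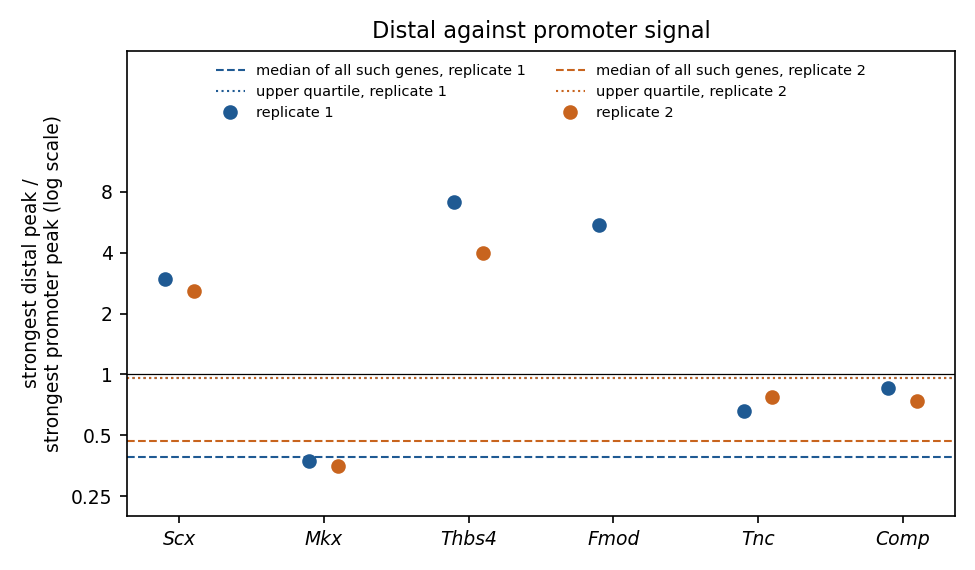
Ratio of the strongest distal peak to the strongest promoter peak (vertical log axis) of each tendon gene that had both (horizontal axis), with points for replicates 1 and 2 and lines for the median and upper quartile of all genes with both. Scx, Thbs4 and Fmod lie above 1, from 2.59 to 7.12, and Mkx, Tnc and Comp lie below 1.

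Footprints were present in most of these peaks. The 40 distal peaks of replicate 1 held 77 footprints and the 25 of replicate 2 held 55, where all distal peaks held on average 1.88 and 1.68 each. Merged into regions, 21 were shared, 16 were in replicate 1 alone and 3 in replicate 2 alone. A footprint was present in 31 of the regions with a peak in replicate 1 and in 21 of those with a peak in replicate 2. Over all single distal peaks, a different unit, the shares with a footprint were 80.5% and 72.6%. The promoter regions of the group, merged over the libraries, took in 11 and 9 peaks and held 29 and 25 footprints. In replicate 1 these include the Scx peak of 1.36 that lay outside its 1 kb window, and its footprints. Peaks at starts of all genes held on average 2.79 and 3.28 each. Of the 21 shared distal regions, 19 had a footprint in both libraries, and the same share over all shared distal peaks is not given here.

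The central 150 bp of each shared distal region was searched for motifs on either strand. The E-box CANNTG, the letters scleraxis and other helix-loop-helix proteins bind, was in 17 of 21 (81.0%), against 64.8% of all shared distal peaks. Its form CAGATG, which CANNTG includes, was in 5 (23.8%, against 16.3%), TGACAG in 4 (19.0%, against 11.8%), TGTGGT of RUNX proteins in 4 (19.0%, against 10.6%) and the SMAD site GTCTG in 6 (28.6%, against 36.3%). The stricter CTCF consensus was in 2 (9.52%, against 8.23%). Of the other motifs searched, sites of SP and KLF, AP-1, EGR and ETS proteins were in 1 to 3 regions each, above their background shares. TEAD and SOX sites were below theirs, and the SMAD palindrome, NFI, MEF2, FOX, glucocorticoid receptor and TATA sites were in none. In the 7 shared promoter regions CANNTG was in 5, against 40.7% of all shared peaks at starts, and neither CAGATG nor TGACAG was in any. Of the 27 E-box matches in shared distal regions, 5 touched a footprint in both libraries, as did both CTCF matches. Further E-box matches touched a footprint in 1 library alone. The same shares over all shared distal peaks are not given here. The CAGATG at +15.3 kb of Scx that touched a footprint in both libraries is inside the CTCF match there, so those bases count for both motifs. With 21 regions these shares are descriptions, and 1 region moves a share by 4.76 percentage points.

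The wider families were read in the same way. Of all protein-coding genes, 66.5% and 64.2% had a promoter peak, and 63% had one in both libraries. For CpG-poor genes these shares were 53.6% and 50.5%, and 49.1% in both. Of the 16 small leucine-rich proteoglycans, Fmod and Kera included, 11 and 7 had a promoter peak and 5 had one in both libraries, none had a CpG-rich promoter, and the median signal was 0.881 and 0.880. By mean percentile over the libraries Podn was highest, with 1.50 and 1.61, followed by Prelp (1.32 and 1.23) and Optc (0.917 and 1.44), while Aspn, Epyc and Kera had none. Low promoter signal was thus common to this family. Of the 9 thrombospondins and tenascins, Thbs4, Comp and Tnc included, 7 had a promoter peak in both libraries. Thbs3 (4.25 and 3.89) and Thbs1 (3.57 and 3.49) led and Tnn and Tnxb had none.

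Of the 38 regulators and signals of tendon, 32 and 33 had a promoter peak, 31 had one in both libraries, and 25 of the 38 promoters were CpG-rich. Among all protein-coding genes 66.5% and 64.2% had a promoter peak, 63% had one in both libraries, and 29.9% had a CpG-rich promoter. Ski, a repressor of TGF-beta signalling, had the highest mean percentile of signal over the libraries, with 15.1 and 10.9. Next by that measure came Etv5, an ETS factor of FGF signalling, with 11.2 and 7.72, and Egr1, a zinc finger factor, with 9.17 and 8.26, although in each library at least 1 other gene of the list passed both Etv5 and Egr1. Of the 4 without one in either library, Fgf4, Gdf7 and Ihh encode signalling ligands. Of the 36 genes of tendon matrix and cells, 35 and 30 had a promoter peak, 30 had one in both libraries, and 9 had a CpG-rich promoter. They were led by mean percentile by the collagen prolyl hydroxylase gene P4ha1 (12.2 and 8.11), Eln (5.03 and 4.20) and Col1a1 (4.34 and 4.30), and Ptgis had none. Of the 33 genes of the myotendinous junction, most of them fibre-side anchoring proteins, 30 and 28 had one and 27 had one in both libraries. Of these 33 genes, 11 had a CpG-rich promoter. The list was led by the same measure by Dag1 (12.2 and 7.77), Vcl (12.6 and 7.68) and Lims1 (9.87 and 7.08), and Tigd4 and Tln2 had none.

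**Figure D4:**
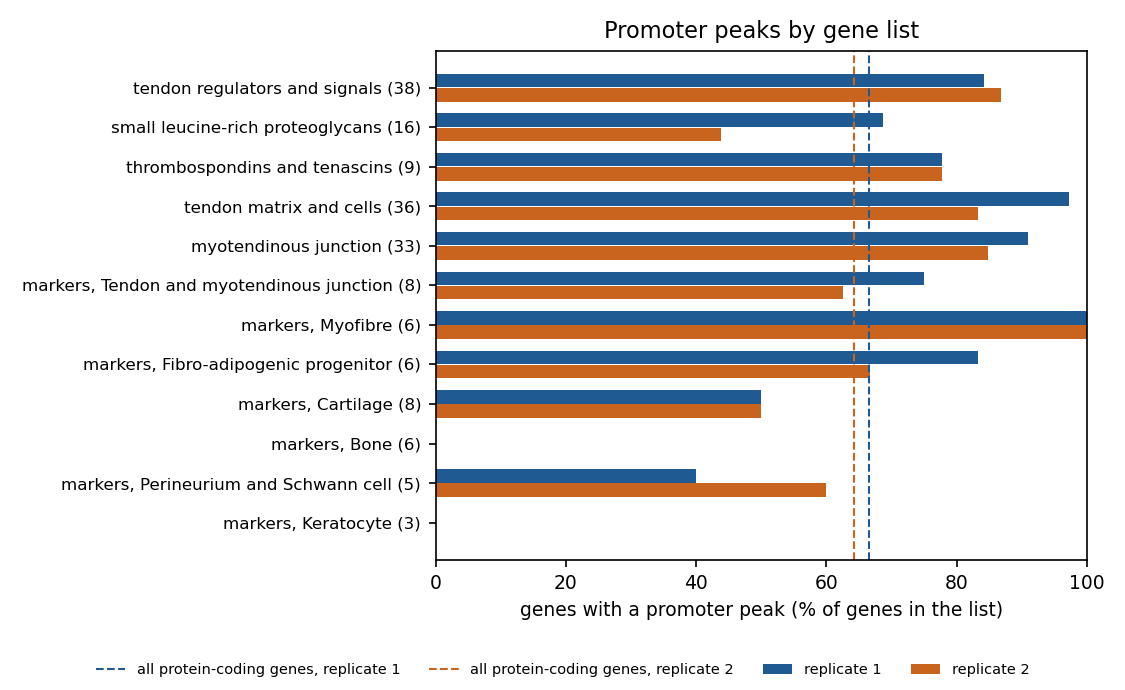
Share of genes with a promoter peak (horizontal axis, percent of the genes in the list) for each list (vertical axis, number of genes in parentheses) in replicates 1 and 2, with dashed lines at 66.5% and 64.2% for all protein-coding genes. Myofibre markers stand at 100%, the tendon genes at 75% and 62.5%, and bone and keratocyte markers at 0.

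Several of the tendon genes are also used by other connective tissues. Fibro-adipogenic progenitors, the interstitial fibroblasts of muscle, had a promoter peak at 5 and 4 of 6 markers, with signals from 0.716 to 2.85 and from 0.829 to 3.05. Cartilage markers had one at 4 of 8 in each library, but at the same gene in both for only 2 of 8, and perineurial and Schwann cell markers at 2 and 3 of 5. Bone markers were at 0 of 6, and the 3 keratocyte markers found, of the corneal cells that also use Kera, at 0 of 3. Among all protein-coding genes the shares with a promoter peak were 66.5% and 64.2%, and 63% in both libraries. Among CpG-poor genes they were 53.6% and 50.5%, and 49.1% in both. The part of any of these cell types in the values of the 8 genes was not tested.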

How the data were processed

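DNase-seq peaks and footprints of 2 gastrocnemius libraries were analysed on mm10, each library called on its own alignments per the deposited README notes. The sources used here do not name the aligner or the callers. Peak signal is the authors' deposited value. Every signal is a whole multiple of 1 step per library (within 0.1, 100% of peaks), read as tags per 1000000 tags. The deposited per-position values are false discovery rates (q-values), listed below 0.05. The deposited footprint files carry a constant fraction of 0.01, so footprints were not ranked.

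The longer of the 2 peak lists of each library was used. Overlaps of at least 1 bp with GENCODE M21 starts and genes were computed in Python 3.11.15 with numpy 2.4.6, pandas 2.3.3 and scipy 1.17.1, and the overlap and step routines were tested on simulated data. A CpG-rich promoter had at least 50% GC and a CpG ratio of at least 0.6 over 2000 bp. Distal counts were ranked within 4 gene length classes. Footprints counted lay wholly inside a peak of the same library. Poisson intervals (95%) cover counting error only. There is 1 group, so no test was run.

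The genes, lists and motifs were chosen with earlier results of these data known. The rule names all 8 genes, and for each the strongest promoter peak, the 2 strongest distal regions found in both libraries and any peak at another gene's start. From each list it names the 3 genes of highest promoter percentile and those without a promoter peak, 6 at most. Other peaks were named after their values were seen. Ctgf was matched as Ccn2, and Chst6 was not matched as a protein-coding symbol. Alternatives are given below. Instrument models are named for replicate 1 only, so sequencing and animal cannot be told apart between the libraries.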

Additional observations from a re-analysis of the deposited data

How the results depend on the processing

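The count of tendon genes whose promoter was open in both libraries (5) was 4 to 5 under other start windows, the 5′ end alone, the shorter peak list and the stronger 50% of peaks, with Comp lost for the 5′ end and Thbs4 for the stronger peaks. It was 5 to 6 when 1 library was left out. The 21 distal regions seen in both libraries fell to 10 with the shorter peak list and to 12 with the stronger 50% of peaks, as fewer peaks are listed. Read from 1 library they were 24 without replicate 1 and 40 without replicate 2, since overlap is then not required. The mean count of footprints per library (99) was 63.5 with a flank of 10 kb, a smaller window, and 147 with one of 50 kb. It was 67.5 with the shorter peak list, 110.5 with all footprints of the window, and 89 to 109 when 1 library was left out. The share of distal peaks of replicate 1 found in the other library (60%) ran from 50% to 68.2% under the 5 alternatives tried. That of replicate 2 (88%) ran from 76% to 92.3%. Of 28 promoter signals of single genes under other settings with both libraries, 26 moved by less than the spread between the libraries. Most of the 28 did not change at all, because the same strongest peak was picked, so they say little of stability. The 10 that leave out 1 library stay within that spread by construction and say nothing of stability. The mean of all promoter peaks in place of the strongest changes the measure itself. It gave 1.22 for Scx and 1.14 for Mkx, against 1.31 and 2.74, so Mkx then lay below Scx. No paired analysis was possible because there is 1 group and no comparison between groups. Replicate 2 has fewer tags and fewer peaks, so a region seen in replicate 1 alone may have been below detection in replicate 2, which was not tested.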
